A study of Mus musculus with 30 samples.

Results

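The extracellular matrix genes of AML12 cells, a line of mouse hepatocytes, were analysed as 71 protein-coding genes. They comprised all 44 collagen chain genes, all 11 laminin chain genes, and 16 further genes for fibronectin (Fn1), osteonectin (Sparc), nidogens (Nid1, Nid2), perlecan (Hspg2), agrin (Agrn), lysyl oxidases (Lox, Loxl1, Loxl2), fibrillin-1 (Fbn1), Tgfbi, thrombospondin-1 (Thbs1), metalloproteinase inhibitors (Timp1, Timp2, Timp3) and the collagen chaperone Serpinh1. These genes were picked by symbol, without use of their counts, from the 49089 identifiers in the count files. The cells had been transfected with siRNA against the forkhead transcription factor FoxK1 (FoxK1 KD), against FoxK2 (FoxK2 KD) or against both (DKD), and Control cells had received NS siRNA. After overnight serum starvation they were mock treated (basal, a treatment time of 0 h in the labels) or stimulated with 100 nM insulin for 6 h. Each of the 8 groups held 4 samples, except Control and DKD cells after insulin with 3 each, and all 30 came from a single transiently transfected line. No label says whether the samples of a group were separate cultures, so p-values measure only the spread between these samples, which may be technical.

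Basement membranes are sheets of type IV collagen and laminin, networks that nidogen, perlecan and agrin tie together beneath epithelial cells. Laminins are trimers of an alpha, a beta and a gamma chain, whereas fibril-forming collagens build the interstitial fibres of connective tissue. In liver, stellate cells are known for making most fibrillar collagen, and hepatocytes for secreting soluble plasma fibronectin.

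Between 2141460 and 5668270 reads per sample had been counted on genes, and 11368 genes had enough reads to be tested. The knockdowns were partial. Relative to basal Control, FoxK1 KD left 45.2% and DKD 57.1% of the Foxk1 level, whereas FoxK2 KD left 33.7% and DKD 35.8% of Foxk2. Of the 10 hepatocyte markers, 8 could be tested, with a summed level of 1520 to 2470 CPM (counts scaled to library size) per sample. Most of that sum came from the keratins Krt18 and Krt8, which averaged 1100 and 706 CPM. Hnf4a averaged 134 CPM, but Alb averaged 10.4 CPM and Apoa1 and Apoa2 did not reach the filter. None of 10 stellate cell or fibroblast markers and none of 8 endothelial markers passed the filter. Their sums stayed at or below 0.861 and 0.941 CPM in every sample, with Pdgfra, Pdgfrb, Lrat, Lum, Lyve1 and Emcn at 0 counts throughout. Among 5 cholangiocyte markers 4 were tested, summing to 1340 to 2820 CPM. Spp1 averaged 1390, Krt19 488, Sox9 201 and Krt7 24.4 CPM, with Epcam at 0 counts. Of 7 leukocyte or Kupffer cell markers 2 were tested, and the sum was 78.2 to 145 CPM. Cd14 averaged 102 and Csf1r 9.52 CPM, with Adgre1 at 0 counts. Control basal replicate 1 stood apart, with a root-mean-square distance of 0.486 in log2-CPM from the rest of its group, and Control insulin replicate 1 came next with 0.38, while the other 28 samples lay between 0.239 and 0.349. The 12 basal samples of Control, FoxK1 KD and FoxK2 KD cells also differed together from the other 18. In all of them 52 tested genes, 10 of them pseudogenes, were lower than in each of the 18, and 83 genes, 0 of them pseudogenes, were higher, with 0 of the matrix genes on either list. Basal DKD against Control and the insulin effects outside DKD cells run across that division. So does the difference between the insulin effects of DKD and Control cells. The part of the division in these comparisons was not tested.

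Of the 71 matrix genes, 29 were tested: 12 collagen chains, 7 laminin chains and 10 others. The set was mostly basement membrane, for which 16 of 23 genes were tested. By contrast 2 of 11 fibril-forming collagens, 3 of 9 fibril-associated collagens, 1 of 16 other collagens (beaded-filament, anchoring, network and transmembrane types), 3 of 5 glycoproteins and 4 of 7 genes for handling of the matrix passed the filter. Among the 42 others the highest count in any sample was 12, for Col4a4. Type I collagen, the main fibril of scars, was at or below 4 counts for Col1a1 and 1 count for Col1a2. Type III collagen (Col3a1) reached 1 count. The 3 chains of the classical type VI microfibril reached 8 (Col6a1), 2 (Col6a2) and 1 (Col6a3). Laminin alpha chains other than Lama5 stayed low too, with at most 2 counts for Lama1, 3 for Lama2, 5 for Lama3 and 8 for Lama4. Col5a1 reached 10, Col4a3 9 and Col9a3 5 counts. Most of the others reached 1 or 2 counts at most, namely Col2a1, Col5a2, Col5a3, Col6a5, Col6a6, Col8a2, Col10a1, Col14a1, Col17a1, Col23a1, Col24a1, Col25a1, Col28a1, Lox, Loxl1, Fbn1, Tgfbi, Nid2 and Timp3. Col6a4, Col8a1, Col9a1, Col9a2, Col11a1, Col13a1, Col19a1, Col22a1 and Col26a1 were at 0 in all 30 samples, and a count of 0 allows 3 counts, which is 0.529 CPM in the deepest and 1.40 CPM in the shallowest sample. Exons of Nid2, Timp3 and Fbn1 overlap exons of the opposite-strand genes Rtraf, Syn3 and Gm9913, and without a stated strand setting reads on the shared bases cannot be told apart.

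To compare genes, CPM values were divided by exon length. In Control cells at basal, Serpinh1 (HSP47, a procollagen chaperone of the endoplasmic reticulum) had the highest mean with 138 ± 72.5 CPM per kb (SD, n = 4), with replicate 1 at 246 CPM per kb. Col18a1, a basement membrane collagen whose tail is endostatin, followed with 91.5 ± 14.9 and agrin with 90.1 ± 4.16 CPM per kb. The samples of these 3 genes overlapped, and all lay above Timp2 (52.0 ± 8.05), Sparc (50.4 ± 3.28) and Lamb2 (48.1 ± 4.61 CPM per kb). Beta chains summed to 64.8 ± 5.0, gamma chains to 34.7 ± 4.6 and alpha chains to 28.4 ± 3.4 CPM per kb. Most of each sum came from 1 chain, Lamb2, Lamc1 (33.2 ± 4.61) and Lama5 (28.3 ± 3.41 CPM per kb). Lamb3, the beta chain of an epithelial laminin, stood at 15.5 ± 1.59 CPM per kb. Col4a1 (18.7 ± 2.1) and Col4a2 (14.7 ± 1.19 CPM per kb), the chains of the ubiquitous type IV collagen trimer, lay above Col4a5 (4.92 ± 0.926) and Col4a6 (1.10 ± 0.144 CPM per kb). All 71 genes together took 0.337 to 0.476% of a sample's counts.

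**Figure D1:**
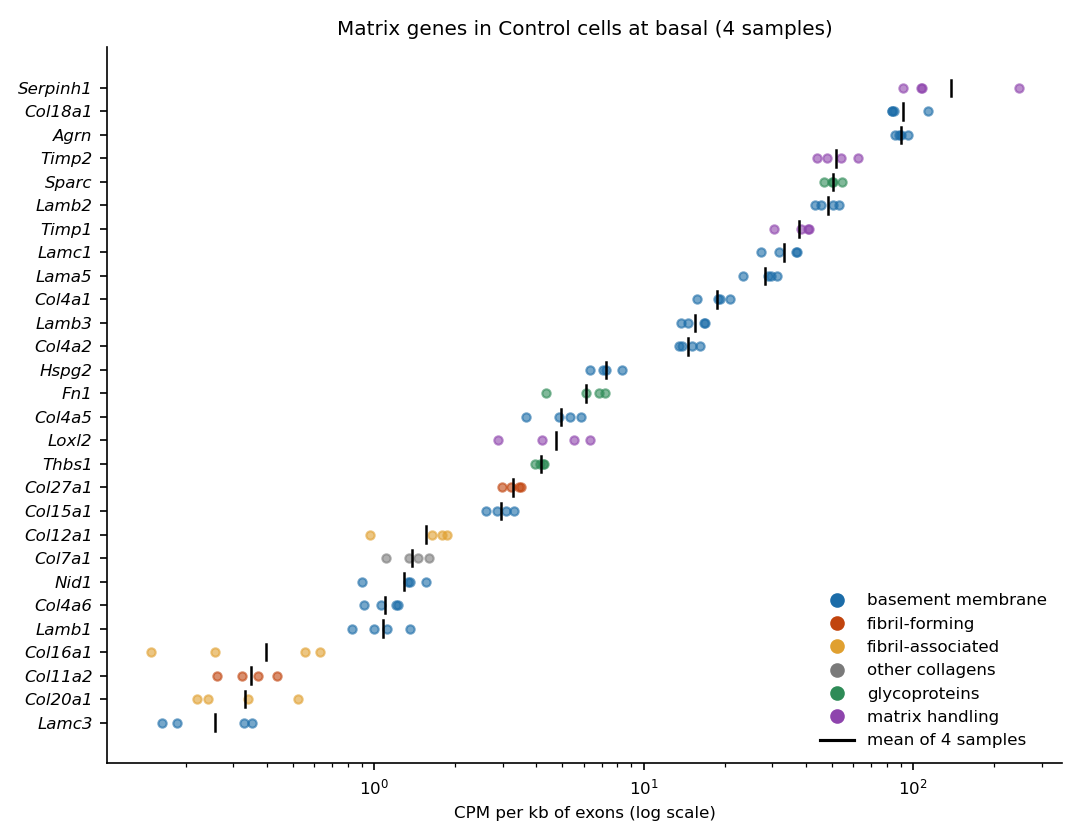
Level of the tested matrix genes reported here in the 4 Control samples at basal, in CPM per kb of exons on a log axis. Points are samples, black ticks the means, and colours the role. Serpinh1, Col18a1 and Agrn lead, and the highest Serpinh1 point is replicate 1 at 246 CPM per kb.

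Promoter windows of 300 bases, 250 before to 50 after the start, came from RefSeq (GRCm38.p6) and covered 50 of the 71 genes and 16 of the 22 that changed in at least 1 comparison below. Thbs1 had none. Col4a1 and Col4a2 lie head to head, and their windows at chr8:11312777-11313076 (minus strand) and chr8:11312555-11312854 (plus strand) are shown because they share 78 bases, in capitals, read on opposite strands.
Col4a1: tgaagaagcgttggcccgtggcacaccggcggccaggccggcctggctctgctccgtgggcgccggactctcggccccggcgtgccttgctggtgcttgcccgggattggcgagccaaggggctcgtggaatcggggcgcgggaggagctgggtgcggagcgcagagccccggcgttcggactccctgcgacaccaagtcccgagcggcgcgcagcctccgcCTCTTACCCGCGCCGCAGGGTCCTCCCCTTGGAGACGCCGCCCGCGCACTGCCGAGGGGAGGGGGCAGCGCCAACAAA
Col4a2: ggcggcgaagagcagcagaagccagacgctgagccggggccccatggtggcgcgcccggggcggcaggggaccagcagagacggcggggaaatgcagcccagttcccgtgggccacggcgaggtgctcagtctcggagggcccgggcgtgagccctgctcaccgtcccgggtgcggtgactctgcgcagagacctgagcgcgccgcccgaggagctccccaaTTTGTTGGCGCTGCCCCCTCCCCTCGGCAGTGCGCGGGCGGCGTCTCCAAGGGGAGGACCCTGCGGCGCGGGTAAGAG
Over the 30 samples the CPM of the pair gave a Pearson r of 0.51, a description only, since the samples share library and depth.

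Forkhead factors bind sites built around AAACA, so the windows were searched for GTAAACA and for its core AAACA on both strands, a GTAAACA match also holding AAACA. Of 25 windows of tested matrix genes, 0 held GTAAACA, against 3.65% of 32851 windows of all genes, and 8 held AAACA, against 50.5% of all. GGGCGG, the GC box, was in 18 of 25, against 35.7% of all, and TATAAA in 1 of 25, against 13.6%. A match is a description of letters and not a site. The windows of Lamb3 (second of its 2, chr1:193301993-193302292, plus strand) and Lamb1 (chr12:31265043-31265342, plus strand), laminin chains that changed in the knockdowns, are given with AAACA or its reverse complement in capitals.
Lamb3: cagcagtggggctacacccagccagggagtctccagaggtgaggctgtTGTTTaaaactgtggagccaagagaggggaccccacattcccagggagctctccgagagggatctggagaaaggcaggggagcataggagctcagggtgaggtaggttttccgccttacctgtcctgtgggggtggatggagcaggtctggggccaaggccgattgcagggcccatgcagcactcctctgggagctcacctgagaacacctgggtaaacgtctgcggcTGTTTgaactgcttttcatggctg
Lamb1: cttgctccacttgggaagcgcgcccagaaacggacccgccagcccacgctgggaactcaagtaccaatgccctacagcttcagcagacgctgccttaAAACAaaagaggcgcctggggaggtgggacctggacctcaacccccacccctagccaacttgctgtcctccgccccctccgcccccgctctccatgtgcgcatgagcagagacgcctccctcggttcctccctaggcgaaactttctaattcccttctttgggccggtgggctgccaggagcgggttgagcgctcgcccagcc

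Each knockdown was set against Control to ask which matrix genes depend on FoxK1, FoxK2 or both. A gene was called when its Benjamini-Hochberg adjusted p (FDR), over all tested genes, was below 0.05 in edgeR's quasi-likelihood test. The 3 knockdown comparisons at basal share their Control samples, as do the 3 after insulin. At basal, FoxK1 KD raised 4 matrix genes (Thbs1, Sparc, Col12a1 and Lamb1) and lowered 0, where 3.39% of all genes were called higher and 4.71% lower. FoxK2 KD raised 0 and lowered only Lamb3, against 0.211% and 0.167% of all genes. In DKD cells 8 rose and 0 fell, against 10.3% and 10.8% of all genes. After insulin, FoxK1 KD raised 5 and lowered 0 (1.86% and 1.72% of all), FoxK2 KD raised 0 and lowered Lamb3 (0.0088% and 0.0176%), and DKD raised Thbs1 and lowered Lamb3 (0.871% and 0.343%). For the zero counts, the members at an unadjusted p below 0.05 in that direction were 1 in FoxK1 KD, 3 in FoxK2 KD and 0 in DKD at basal, and 4 in FoxK1 KD and 0 in FoxK2 KD after insulin. DESeq2 and limma-voom also called 0 in each of these. The median log2 fold change of the 29 genes was 0.10, -0.02 and 0.20 at basal in FoxK1 KD, FoxK2 KD and DKD cells, and that of all genes was within 0.012 of 0. Without Control basal replicate 1 the basal calls numbered 3, 1 and 9 in FoxK1 KD, FoxK2 KD and DKD cells, and without Control insulin replicate 1 those after insulin numbered 3, 0 and 3. Of all genes, 220, 11 and 1481 were called higher and 188, 2 and 1581 lower in these basal fits. In the fits after insulin 131, 2 and 83 were higher and 100, 3 and 39 lower. In bulk RNA, fewer cells that make a gene and less RNA per cell cannot be told apart.

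**Figure D2:**
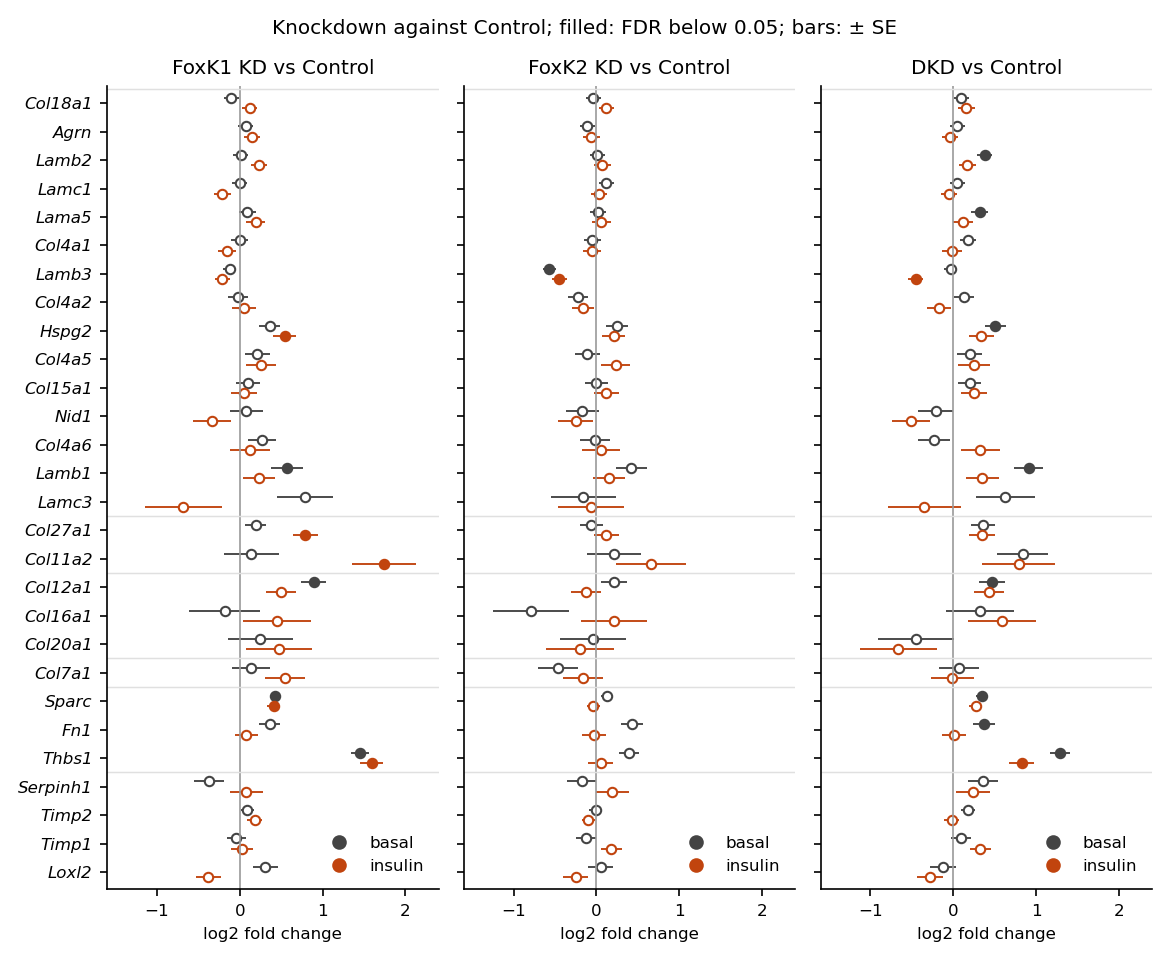
Log2 fold change against Control, with SE, of the tested matrix genes reported here in each knockdown, ordered by role from basement membrane (top) to handling of the matrix. Dark points are basal and orange points insulin-stimulated samples, and filled points passed an FDR of 0.05. Thbs1 is filled at 1.45 and 1.59 in FoxK1 KD cells, and Lamb3 at -0.57 and -0.45 is the filled gene in FoxK2 KD cells.

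Thbs1 encodes thrombospondin-1, a matricellular protein that binds cells and matrix and can activate latent TGF-beta (chr2:118111876-118127133, GRCm38). At basal it stood at 24.1, 25.8, 25.1 and 25.9 CPM in Control cells and at 67.0, 74.3, 63.3 and 71.7 CPM in FoxK1 KD cells. DKD cells had 51.4, 78.2, 54.1 and 62.1 CPM and FoxK2 KD cells 35.5, 33.9, 32.4 and 30.8 CPM. All samples of each knockdown lay above all Control samples, and FoxK2 KD samples lay below those of the other knockdowns. Thbs1 was 2.73-fold higher in FoxK1 KD (log2 fold change 1.45 ± 0.11 SE, adjusted p = 8.2e-11) and 2.45-fold higher in DKD cells (1.29 ± 0.12, adjusted p = 2.5e-09). The FoxK2 KD difference of 0.39 ± 0.12 did not pass (adjusted p = 0.16). After insulin, Control cells had 24.0, 18.6 and 22.0 CPM, FoxK1 KD cells 66.1, 51.9, 69.9 and 73.1, FoxK2 KD cells 20.3, 21.5, 22.8 and 25.8, and DKD cells 41.5, 37.5 and 36.3 CPM. FoxK1 KD and DKD samples were again all above Control, with log2 fold changes of 1.59 ± 0.14 (adjusted p = 1.7e-09) and 0.83 ± 0.15 (adjusted p = 0.0012), whereas FoxK2 KD overlapped Control (0.05 ± 0.15). Insulin itself lowered Thbs1 in FoxK2 KD (-0.56 ± 0.13, adjusted p = 0.0011) and DKD cells (-0.68 ± 0.12, adjusted p = 0.00015) but was not called in Control (-0.22 ± 0.14) or FoxK1 KD cells (-0.08 ± 0.11). The difference between the DKD and Control insulin effects, -0.46 ± 0.19, did not pass (adjusted p = 0.23). Each Thbs1 call held under every alternative fit and without any single sample. The fall in FoxK2 KD cells was not called at the study's thresholds, which ask a fold of 1.5, where 0 matrix genes were called lower. Part of its exons (208 bases) overlaps the opposite-strand transcript Gm29233.

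Sparc encodes osteonectin, a collagen-binding glycoprotein (chr11:55394500-55423183). Its basal values were 177, 191, 189 and 207 CPM in Control, 249, 278, 253 and 250 CPM in FoxK1 KD, 201, 217, 215 and 202 CPM in FoxK2 KD, and 235, 259, 233 and 244 CPM in DKD cells. FoxK1 KD and DKD samples lay above all Control samples, while FoxK2 KD overlapped them. The rise was 0.43 ± 0.07 in FoxK1 KD (adjusted p = 0.00022) and 0.35 ± 0.07 in DKD cells (adjusted p = 0.00075), on the log2 scale. The FoxK1 KD call was lost when only its 8 samples were fitted (adjusted p = 0.058). In stimulated cells Sparc was at 253, 217 and 219 CPM in Control and at 273, 302, 331 and 315 CPM in FoxK1 KD cells, without overlap (0.41 ± 0.08, adjusted p = 0.0015). DKD cells had 284, 260 and 288 CPM after insulin, again above Control, yet the difference of 0.27 ± 0.08 did not pass (adjusted p = 0.098). Insulin raised Sparc by 0.27 ± 0.08 in Control (adjusted p = 0.01) and 0.25 ± 0.07 in FoxK1 KD cells (adjusted p = 0.0082). The Control call was lost without Control insulin replicate 1 (0.19, adjusted p = 0.11), and the FoxK1 KD call when the trend on GC content and length was removed (0.14, adjusted p = 0.16).

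Fn1, for fibronectin, differed less between the knockdowns. Control cells at basal had 50.8, 84.0, 71.7 and 79.8 CPM and DKD cells 94.8, 90.7, 104 and 83.4 CPM, which overlapped. The DKD difference of 0.37 ± 0.13 passed narrowly (adjusted p = 0.044), but not without Control basal replicate 1 (0.23, adjusted p = 0.16) or 3 (0.078), or DKD basal replicate 1 (0.11), 2 (0.076) or 3 (0.14). Differences of similar size in FoxK1 KD (0.36 ± 0.13, adjusted p = 0.078) and FoxK2 KD cells (0.43 ± 0.13, adjusted p = 0.14) at basal did not pass. Insulin raised it in Control cells to 88.6, 128 and 135 CPM, above every basal sample. That rise was 0.70 ± 0.14 (adjusted p = 0.00029), and 0.57 without Control basal replicate 1 (adjusted p = 0.00093). In FoxK1 KD cells insulin raised Fn1 by 0.41 ± 0.13 (adjusted p = 0.015), lost without basal replicate 3 (0.067) or insulin replicate 4 (0.074). The insulin differences in FoxK2 KD (0.24 ± 0.13, adjusted p = 0.16) and DKD cells (0.34 ± 0.14, adjusted p = 0.095) did not pass. Fn1 shares 292 exon bases with an antisense transcript, Apol7d.

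**Figure D3:**
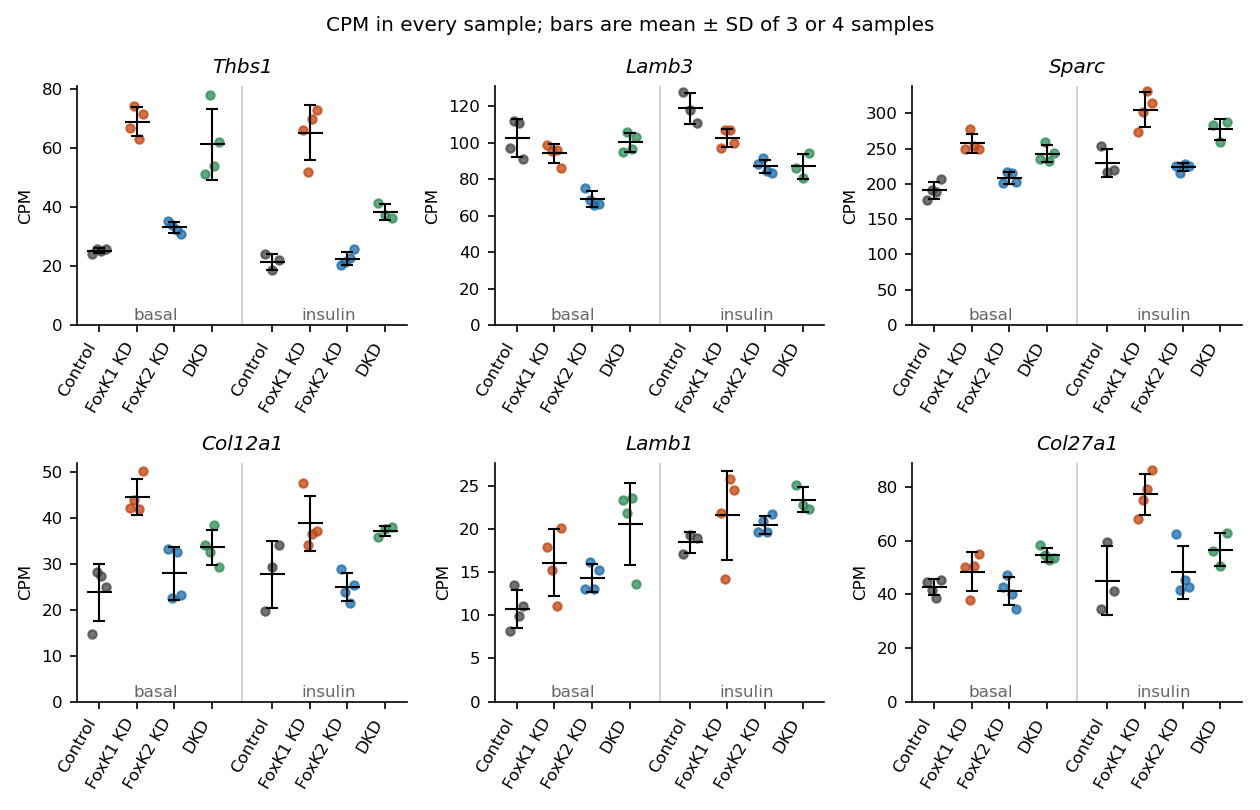
CPM of Thbs1, Lamb3, Sparc, Col12a1, Lamb1 and Col27a1 in all 30 samples. Points are samples, bars the mean and SD of 3 or 4 samples, with basal groups left and insulin-stimulated groups right of the grey line. Thbs1 in FoxK1 KD cells (51.9 to 74.3 CPM) lies above every Control sample (18.6 to 25.9 CPM), and Lamb3 is lowest in FoxK2 KD cells at basal (66.1 to 75.3 CPM).

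Lamb3 (chr1:193207699-193343878) was the only matrix gene called in FoxK2 KD cells against Control. Control samples at basal read 97.0, 112, 111 and 90.9 CPM and FoxK2 KD samples 75.3, 68.7, 66.1 and 66.6 CPM, without overlap. FoxK1 KD cells had 98.7, 95.4, 96.2 and 86.4 CPM and DKD cells 95.0, 106, 96.7 and 103 CPM, both within or next to the Control range. The FoxK2 KD difference was -0.57 ± 0.08 (adjusted p = 0.00015), a 1.49-fold lower level, against -0.12 ± 0.08 in FoxK1 KD (adjusted p = 0.36) and -0.03 ± 0.08 in DKD cells (adjusted p = 0.82). It held without each sample in turn, but not when only these 8 samples were fitted (adjusted p = 0.19). After insulin the values were 128, 118 and 111 CPM in Control, 97.2, 107, 107 and 99.8 in FoxK1 KD, 88.6, 91.6, 84.6 and 83.2 in FoxK2 KD, and 86.1, 80.5 and 94.4 CPM in DKD cells, all knockdown samples below all Control samples. DKD cells differed by -0.45 ± 0.09 (adjusted p = 0.0067), lost without DKD insulin replicate 2 (adjusted p = 0.058) and with only the compared groups fitted (adjusted p = 0.1). FoxK2 KD cells differed by -0.45 ± 0.09 as well (adjusted p = 0.027), but leaving out any of the 7 samples ended that call, with adjusted p-values of 0.2, 0.16 and 0.051 without Control insulin replicates 1, 2 and 3 and 0.078, 0.069, 0.058 and 0.16 without FoxK2 KD insulin replicates 1, 2, 3 and 4. In those 7 fits the FoxK2 KD difference itself stayed between -0.5 and -0.4. Insulin raised Lamb3 in FoxK2 KD cells (0.33 ± 0.08, adjusted p = 0.0022), an effect of 0.23 with the GC and length trend removed (adjusted p = 0.052). In DKD cells all insulin samples lay below all basal ones, by -0.20 ± 0.09 (adjusted p = 0.11).

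The laminin gamma 3 chain, Lamc3, was close to the detection limit, at 2.26, 1.65, 4.47 and 2.68 CPM in FoxK1 KD cells at basal and 1.48, 1.87, 1.27 and 0.742 CPM after insulin. Its call of -1.06 ± 0.41 (adjusted p = 0.043) was lost without FoxK1 KD basal replicate 3 (0.23) or 4 (0.053) or insulin replicate 1 (0.068), 3 (0.077) or 4 (0.14), with DESeq2 (0.096) and with limma-voom (0.071).

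Lamb1 (chr12:31265234-31329644), for the beta chain found in most laminins, rose in DKD cells at basal and, less securely, in FoxK1 KD cells at basal. Control cells at basal had 8.22, 13.5, 9.92 and 11.1 CPM, FoxK1 KD cells 17.9, 15.2, 11.1 and 20.1 CPM, FoxK2 KD cells 13.0, 16.2, 13.0 and 15.2 CPM, and DKD cells 23.3, 21.8, 23.6 and 13.6 CPM. DKD samples lay just above Control in 1 sample and clearly above in the other 3, and the rise of 0.91 ± 0.18 (adjusted p = 0.00055) held without any sample and with the GC and length trend removed (0.82, adjusted p = 0.0015). The FoxK1 KD rise of 0.57 ± 0.19 was borderline (adjusted p = 0.048). It was lost without Control basal replicate 1 (0.16), 3 (0.092) or 4 (0.061), FoxK1 KD basal replicate 1 (0.12), 2 (0.078) or 4 (0.17), and with limma-voom (0.076). The FoxK2 KD difference of 0.42 ± 0.19 did not pass (adjusted p = 0.37), nor did any knockdown after insulin (adjusted p of 0.59, 0.98 and 0.47 in FoxK1 KD, FoxK2 KD and DKD cells). Insulin brought Control cells to 17.1, 19.3 and 18.9 CPM, above all basal samples (0.77 ± 0.20, adjusted p = 0.0038). FoxK2 KD cells rose to 19.6, 20.9, 19.7 and 21.7 CPM (0.51 ± 0.17, adjusted p = 0.026), a call lost without basal replicate 1 (0.063) or 3 (0.077) or insulin replicate 2 (0.053) or 4 (0.06). In DKD cells, already high at basal, insulin samples had 25.1, 22.8 and 22.3 CPM (0.21 ± 0.18, adjusted p = 0.47). The difference between DKD and Control insulin effects was -0.56 ± 0.27 and did not pass (adjusted p = 0.33).

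The main laminin chains, other than Lamc1, were higher in DKD cells at basal. Lamb2 had 324, 277, 308 and 263 CPM in Control and 398, 389, 397 and 336 CPM in DKD cells, without overlap (0.38 ± 0.09, adjusted p = 0.0022). Lama5 had 267, 357, 330 and 337 CPM in Control and 440, 410, 410 and 358 CPM in DKD cells (0.32 ± 0.10, adjusted p = 0.018). Lamc1, with 225, 303, 307 and 264 CPM in Control and 289, 303, 298 and 253 CPM in DKD cells, was not called (0.05 ± 0.09, adjusted p = 0.7). These rises moved with base composition. Across all genes the DKD difference correlated with exon GC content (Spearman rho 0.47 over 11346 genes, not independent), and the 29 matrix genes had a median GC content of 56.1%, against 49.3% for all tested genes. With the trend on GC and length removed, Lamb2 was at 0.18 (adjusted p = 0.12), Lama5 at 0.12 (adjusted p = 0.35) and Fn1 at 0.26 (adjusted p = 0.12), whereas Thbs1 stayed at 1.26, Lamb1 at 0.82 and Sparc at 0.25 (adjusted p = 0.019). Lama5 was also lost without Control basal replicate 1 (0.062) or DKD basal replicate 1 (0.086).

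Hspg2 encodes perlecan, a large heparan sulfate proteoglycan of basement membranes. It was at 90.7, 104, 101 and 119 CPM in Control and 162, 143, 170 and 119 CPM in DKD cells at basal, which touched only at 119 (0.51 ± 0.13, adjusted p = 0.0042), and at 0.30 after removal of the GC and length trend (adjusted p = 0.03). After insulin FoxK1 KD cells had 147, 141, 165 and 165 CPM and Control cells 74.4, 122 and 124 CPM, a difference of 0.54 ± 0.14 (adjusted p = 0.027). Control insulin replicate 1 carried much of it, since the difference was 0.33 without that sample (adjusted p = 0.24), and it was also lost without FoxK1 KD insulin replicate 3 (0.066) or 4 (0.082).

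The type IV collagen pair changed little. Col4a1 had 118, 141, 143 and 156 CPM in Control and 170, 160, 161 and 143 CPM in DKD cells at basal, and Col4a2 had 99.8, 107, 91.8 and 89.8 against 109, 126, 97.2 and 91.1 CPM. Both pairs of groups overlapped, at 0.18 ± 0.10 (adjusted p = 0.2) and 0.13 ± 0.12 (adjusted p = 0.5), and neither chain was called in a knockdown comparison. Insulin in DKD cells was followed by 131, 118 and 153 CPM for Col4a1 (-0.24 ± 0.11, adjusted p = 0.14) and by 87.3, 70.0 and 83.1 CPM for Col4a2 (-0.39 ± 0.13, adjusted p = 0.042). The Col4a2 call was lost without DKD basal replicate 1 (0.084) or 2 (0.16), DKD insulin replicate 1 (0.053), 2 (0.19) or 3 (0.075), and with the GC and length trend removed (-0.26, adjusted p = 0.084). Col4a5, Col15a1 and Nid1 were called in 0 comparisons, and Col4a6 only after insulin in FoxK1 KD cells. There Col4a6 went from 9.73, 11.6, 10.1 and 10.7 CPM to 7.02, 7.09, 4.23 and 8.54 CPM, without overlap (-0.62 ± 0.20, adjusted p = 0.016), a call lost without insulin replicate 3 (0.081).

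Of the 6 tested collagens outside the basement membrane, FoxK1 KD cells had Col12a1 called higher than Control at basal, where 3.39% of all genes were. After insulin Col27a1 and Col11a2 were called higher, where 1.86% of all genes were. Col12a1 (chr9:79598991-79718831), a fibril-associated collagen, was at 14.7, 28.3, 27.3 and 25.0 CPM in Control and 42.1, 43.9, 41.9 and 50.3 CPM in FoxK1 KD cells at basal, without overlap. FoxK2 KD cells had 33.3, 22.6, 32.6 and 23.3 CPM and DKD cells 34.2, 32.6, 38.4 and 29.3 CPM. The FoxK1 KD rise was 0.89 ± 0.15 (adjusted p = 0.00033), and 0.74 without the low Control replicate 1 (adjusted p = 0.0011). The DKD rise of 0.47 ± 0.16 (adjusted p = 0.035) depended on single samples, being lost without Control basal replicate 1 (0.31, adjusted p = 0.12) or 4 (0.053) or DKD basal replicate 1 (0.088), 2 (0.064) or 3 (0.11). After insulin Col12a1 was not called in FoxK1 KD cells (0.50 ± 0.18, adjusted p = 0.12).

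Col27a1 (chr4:63214004-63334991), a fibril-forming collagen, differed in FoxK1 KD cells only after insulin. At basal it was at 44.8, 41.8, 38.7 and 45.5 CPM in Control and 50.2, 38.0, 50.6 and 55.1 CPM in FoxK1 KD cells (0.19 ± 0.13, adjusted p = 0.41). After insulin Control cells had 34.5, 59.4 and 41.2 CPM and FoxK1 KD cells 68.3, 75.4, 79.2 and 86.5 CPM, without overlap. The difference was 0.79 ± 0.15 (adjusted p = 0.0013), and 0.62 without Control insulin replicate 1 (adjusted p = 0.03). Within FoxK1 KD cells insulin raised it by 0.67 ± 0.13 (adjusted p = 0.00025), against 0.07 ± 0.15 in Control, but the difference between these effects, 0.60 ± 0.20, did not pass (adjusted p = 0.22). Col11a2, the other fibril-forming collagen tested, was low, with 0.791, 2.53 and 1.57 CPM in Control and 4.8, 5.6, 3.81 and 7.05 CPM in FoxK1 KD cells after insulin, again without overlap (1.74 ± 0.39, adjusted p = 0.0068). That call was lost without Control insulin replicate 1 (1.37, adjusted p = 0.076). From basal values of 2.72, 2.97, 2.82 and 1.87 CPM, insulin raised Col11a2 in FoxK1 KD cells by 1.04 ± 0.31 (adjusted p = 0.011), which was lost without insulin replicate 4 (0.059).

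The single knockdowns were then set against each other, a comparison chosen after the values had been seen. FoxK1 KD exceeded FoxK2 KD in 4 matrix genes at basal and fell below it in 0, against 2.13% and 1.89% of all genes, and in 6 and 0 after insulin, against 1.99% and 1.64%. At an unadjusted p below 0.05, 0 genes at basal and 2 after insulin were lower in FoxK1 KD, and DESeq2 and limma-voom called 0 lower. Thbs1 differed by 1.06 ± 0.11 at basal (adjusted p = 1.2e-07) and 1.54 ± 0.12 after insulin (adjusted p = 2.2e-10). Sparc differed by 0.30 ± 0.07 (adjusted p = 0.011) and 0.45 ± 0.07 (adjusted p = 0.00014), and Col12a1 by 0.68 ± 0.15 (adjusted p = 0.0074) and 0.63 ± 0.17 (adjusted p = 0.025). After insulin Sparc stood at 225, 216, 228 and 226 CPM in FoxK2 KD cells, below every FoxK1 KD sample. Col12a1 then had 47.7, 34.0, 36.4 and 37.1 CPM in FoxK1 KD and 28.9, 23.9, 21.5 and 25.5 CPM in FoxK2 KD cells, without overlap. Its call after insulin was lost without FoxK1 KD insulin replicate 1 (0.13) or FoxK2 KD insulin replicate 2 (0.081) or 3 (0.079). Lamb3 differed at basal (0.45 ± 0.08, adjusted p = 0.00074), and Col27a1 after insulin (0.67 ± 0.13, adjusted p = 0.0023), when FoxK2 KD cells had 62.6, 41.8, 45.5 and 42.8 CPM, all below the FoxK1 KD samples. Timp2 (0.28 ± 0.08, adjusted p = 0.038) and Col11a2 (1.08 ± 0.32, adjusted p = 0.049) passed after insulin too, but leaving out single samples raised their adjusted p to as much as 0.12 and 0.19, ending each call in 7 of 8 fits.

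Insulin was compared with basal in each genotype to ask how it acts on the matrix genes with and without FoxK1 and FoxK2. In Control cells 5 were called higher and 1 lower, where 12.4% of all genes were called higher and 13.1% lower. Among FoxK1 KD cells 8 rose and 2 fell (16.2% and 15.4% of all), among FoxK2 KD cells 7 rose and 2 fell (14.4% and 13.7%), and among DKD cells 3 rose and 5 fell (8.31% and 7.99%). With the trend on GC content and length removed, the split of higher and lower calls was 5 and 2 in Control, 5 and 6 in FoxK1 KD, 6 and 6 in FoxK2 KD, and 4 and 3 in DKD cells, so neither the excess of rises in the single knockdowns nor that of falls in DKD cells held under that scaling. Over all genes that scaling called 1565 higher and 1617 lower in Control, 1629 and 1787 in FoxK1 KD, 1588 and 1698 in FoxK2 KD, and 982 and 1042 in DKD cells. The 6 Control calls became 5 without Control basal replicate 1 and 7 without Control insulin replicate 1. Of all genes, 1486 were then higher and 1415 lower in the first fit, and 1263 and 1233 in the second. The median of the 29 genes was 0.17 in Control, 0.10 in either single knockdown and 0.01 in DKD cells, on the log2 scale. Differences between a knockdown's insulin effect and that of Control were called for 0 matrix genes in each knockdown by edgeR, where 0.0%, 0.0% and 1.54% of all genes were called in FoxK1 KD, FoxK2 KD and DKD cells. At an unadjusted p below 0.05 there were 4, 1 and 3 matrix genes. DESeq2 called 0, 0 and 1, the last being Lamb3 in DKD (-0.42, adjusted p = 0.05), and limma-voom 0 in each. With a filter of at least 1 count in any sample, edgeR called Loxl2 in FoxK1 KD (-0.71, adjusted p = 0.039). A matrix gene called in 1 genotype and not in another is therefore not shown to respond differently.

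**Figure D4:**
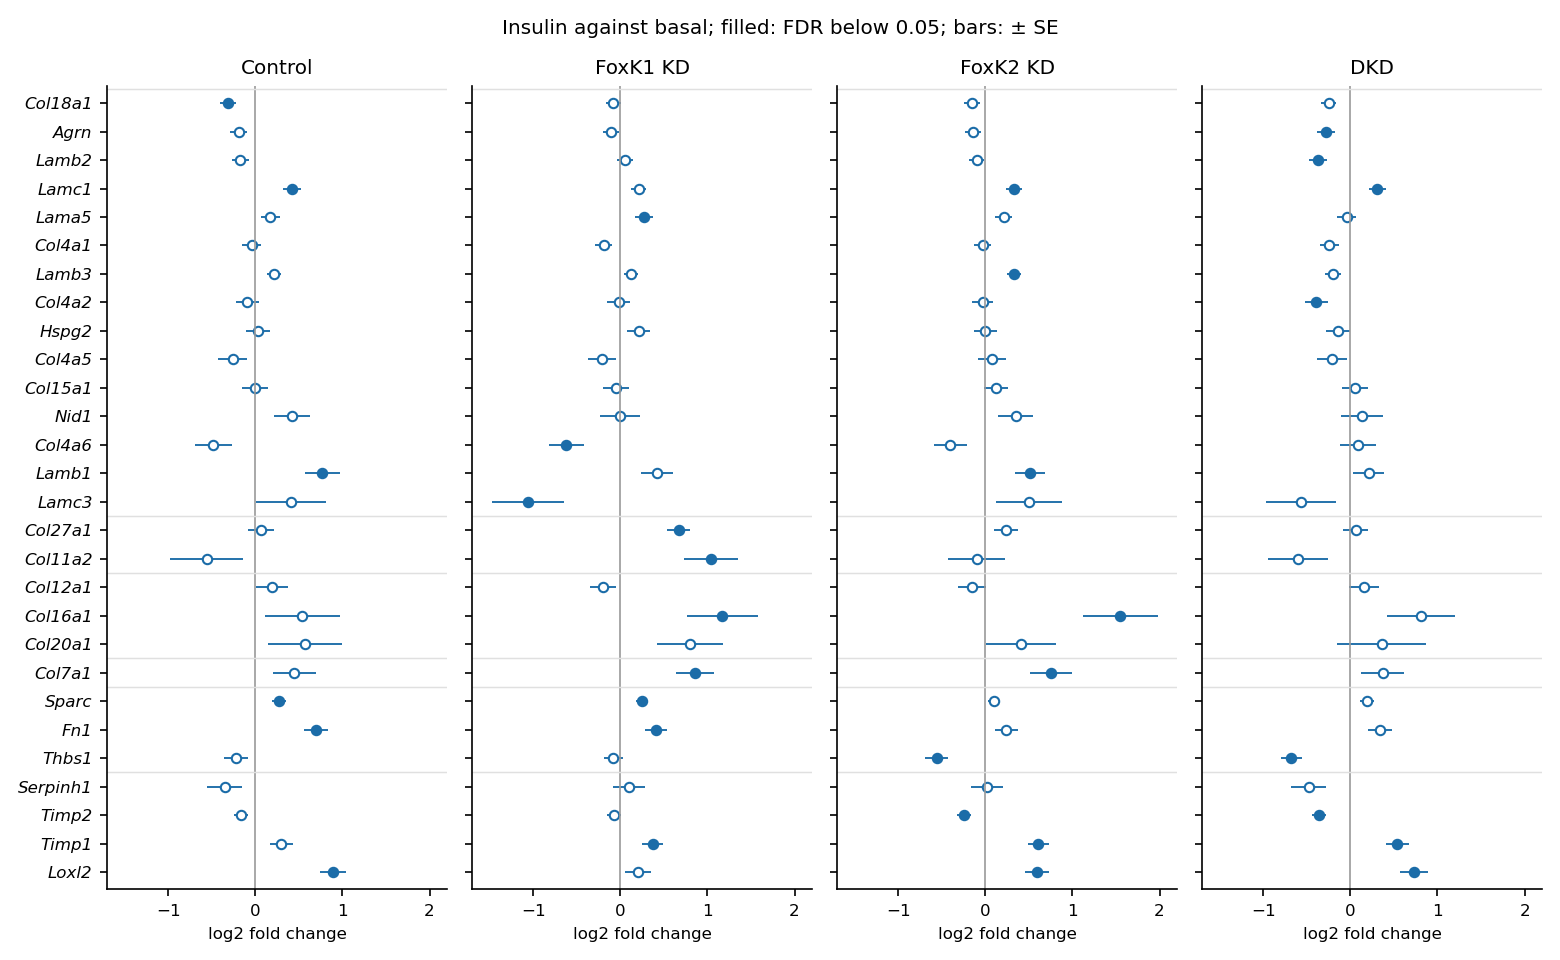
Log2 fold change of insulin-stimulated against basal samples, with SE, of the tested matrix genes reported here in each genotype. Filled points passed an FDR of 0.05. Loxl2 is filled in Control (0.89), FoxK2 KD (0.59) and DKD cells (0.73), and Thbs1 is filled on the lower side in FoxK2 KD (-0.56) and DKD cells (-0.68).

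Loxl2, a lysyl oxidase that crosslinks collagen, led the response in Control cells. It rose from 15.6, 34.3, 22.6 and 29.8 CPM to 48.8, 52.5 and 42.8 CPM, without overlap (0.89 ± 0.15, adjusted p = 3.3e-05, and 0.73 without Control basal replicate 1). In FoxK2 KD cells it rose from 28.7, 22.4, 28.5 and 27.7 CPM to 40.6, 41.0, 37.6 and 42.5 CPM (0.59 ± 0.14, adjusted p = 0.0019), and in DKD cells from 24.1, 18.9, 27.8 and 25.2 CPM to 42.0, 41 and 36 CPM (0.73 ± 0.16, adjusted p = 0.0014). FoxK1 KD cells went from 35.5, 31.4, 30.8 and 30.5 CPM to 30.3, 37.0, 37.7 and 42.3 CPM, which overlapped (0.20 ± 0.15, adjusted p = 0.33). The FoxK1 KD effect minus that of Control was -0.69 ± 0.21 (adjusted p = 0.2). Loxl2 shares 301 exon bases with the antisense gene Gm27177.

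Lamc1, the main laminin gamma chain, rose in 3 genotypes after insulin. Control cells reached 368, 343 and 391 CPM (0.42 ± 0.10, adjusted p = 0.0012, and 0.056 with only these 2 groups fitted). FoxK2 KD cells went from 342, 277, 305 and 275 CPM to 366, 361, 390 and 386 CPM (0.33 ± 0.09, adjusted p = 0.0054), without overlap. DKD cells reached 351, 389 and 325 CPM (0.31 ± 0.10, adjusted p = 0.023), a call lost without DKD basal replicate 4 (0.095) or DKD insulin replicate 1 (0.056) or 2 (0.15). In FoxK1 KD cells the values were 295, 259, 260 and 283 CPM at basal and 309, 288, 340 and 333 CPM after insulin (0.21 ± 0.09, adjusted p = 0.071). Lamb2 moved the other way in DKD cells, to 310, 316 and 256 CPM (-0.37 ± 0.10, adjusted p = 0.006), lost without DKD insulin replicate 3 (0.071). With all samples, Lama5 was called only in FoxK1 KD cells (0.27 ± 0.10, adjusted p = 0.035). That Lama5 call was lost with the GC and length trend removed (0.16, adjusted p = 0.14) and without FoxK1 KD basal replicate 2 (0.081), 3 (0.071) or 4 (0.087) or insulin replicate 1 (0.095), 2 (0.06) or 4 (0.063). In Control cells the Lama5 rise was called without Control insulin replicate 1 (0.32, adjusted p = 0.025).

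The metalloproteinase inhibitors Timp1 and Timp2 moved in opposite directions. In FoxK2 KD cells Timp1 rose from 25.6, 31.8, 30 and 34.3 CPM to 48.9, 46.2, 46.1 and 45.0 CPM (0.61 ± 0.12, adjusted p = 0.00017), while Timp2 fell from 201, 197, 204 and 203 CPM to 175, 164, 178 and 161 CPM (-0.24 ± 0.08, adjusted p = 0.017, lost without insulin replicate 4 at 0.055). In DKD cells Timp1 rose from 37.0, 34.9, 37.9 and 33.4 CPM to 60.2, 48.4 and 46.9 CPM (0.54 ± 0.13, adjusted p = 0.0026), and Timp2 fell from 234, 222, 232 and 230 CPM to 182, 176 and 177 CPM (-0.36 ± 0.08, adjusted p = 0.0026). None of these 4 pairs of groups overlapped. Timp1 also rose in FoxK1 KD cells (0.37 ± 0.12, adjusted p = 0.019), but not with the GC and length trend removed (0.14, adjusted p = 0.34), nor without basal replicate 3 (0.063) or 4 (0.069) or insulin replicate 2 (0.063) or 4 (0.077). In Control cells the differences were 0.30 ± 0.13 for Timp1 (adjusted p = 0.078) and -0.16 ± 0.08 for Timp2 (adjusted p = 0.17). Timp2 in DKD against Control at basal was called only without Control basal replicate 1 (0.27, adjusted p = 0.0038).

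Serpinh1 was called in 0 comparisons with all samples, but single Control libraries decided that. At basal Control cells had 602, 261, 263 and 224 CPM, FoxK1 KD cells 246, 192, 302 and 296 CPM, FoxK2 KD cells 280, 319, 336 and 248 CPM, and DKD cells 455, 465, 440 and 369 CPM. The DKD samples lay above 3 of the Control samples and below the fourth, replicate 1, which stood apart over all genes. The DKD difference was 0.36 ± 0.18 with every sample (adjusted p = 0.15) and 0.79 ± 0.12 without Control basal replicate 1 (adjusted p = 7e-06). In FoxK1 KD cells the difference was -0.37 ± 0.18 (adjusted p = 0.2), called lower without Control basal replicate 4 (-0.53, adjusted p = 0.05) and 0.06 without replicate 1 (adjusted p = 0.85). After insulin DKD cells had 335, 264 and 330 CPM and Control cells 264, 258 and 268 CPM, which overlapped (0.24 ± 0.21, adjusted p = 0.71).

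Col18a1 was the only matrix gene called lower after insulin in Control cells. It went from 799, 598, 586 and 586 CPM to 509, 558 and 487 CPM (-0.31 ± 0.09, adjusted p = 0.013). The call rested on Control basal replicate 1, without which it was -0.19 (adjusted p = 0.086), and was also lost without Control insulin replicate 3 (0.062). Agrn, at 904, 924, 893 and 748 CPM at basal and 751, 669 and 721 CPM after insulin in DKD cells, fell by 0.28 ± 0.10 (adjusted p = 0.043). It too was lost without DKD basal replicate 1 (0.099), 2 (0.11) or 3 (0.078) or DKD insulin replicate 1 (0.06), 2 (0.18) or 3 (0.085). Col7a1, the collagen of anchoring fibrils, rose in FoxK1 KD cells from 17.4, 11.6, 14.8 and 17.9 CPM to 27.0, 31.0, 30.9 and 24.5 CPM, without overlap (0.86 ± 0.22, adjusted p = 0.0034). In FoxK2 KD cells Col7a1 rose as well (0.75 ± 0.24, adjusted p = 0.018, lost without insulin replicate 1 at 0.06). In Control cells, with 15, 16.5, 11.4 and 13.9 CPM at basal and 8.44, 25.6 and 25.2 CPM after insulin, it was called only without the low Control insulin replicate 1 (0.84, adjusted p = 0.0045). Col16a1, a fibril-associated collagen under 10 CPM, rose from 1.54, 1.88, 1.30 and 1.54 CPM to 5.29, 4.68, 4.85 and 3.46 CPM in FoxK2 KD cells (1.55 ± 0.43, adjusted p = 0.0063). Its rise in FoxK1 KD cells (1.17 ± 0.41, adjusted p = 0.027) was lost without basal replicate 1 (0.056) or 3 (0.083) or insulin replicate 2 (0.074), 3 (0.055) or 4 (0.073). Of the 29 tested genes, 22 were called in at least 1 of the 15 comparisons, as were 60.3% of all genes, and 7 in none, among them Col4a1, Col4a5, Col15a1, Col20a1, Nid1 and Serpinh1.

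Genes that make, bind or degrade the matrix were taken from 4 further lists. Their calls come from the main fit only and were not checked under the alternatives or without single samples. Of 26 collagen biosynthesis genes 17 were tested, and insulin raised 7 and lowered 1 in Control, FoxK1 KD and FoxK2 KD cells alike, and raised 6 and lowered 0 in DKD cells. Of all genes, insulin raised 12.4%, 16.2%, 14.4% and 8.31% and lowered 13.1%, 15.4%, 13.7% and 7.99% in these genotypes in that order, the background for all 4 lists. P4ha1, a catalytic subunit of collagen prolyl 4-hydroxylase, rose by 0.76 ± 0.09 in Control (adjusted p = 3.8e-08) and 0.81 ± 0.09 in DKD cells (adjusted p = 3.2e-08). P4ha2 rose by 1.01 ± 0.14 and 0.71 ± 0.14, P4hb, the shared beta subunit, by 0.47 ± 0.07 and 0.39 ± 0.07, and the lysyl hydroxylase Plod2 by 0.83 ± 0.13 and 0.84 ± 0.13. The list median was 0.18 in Control and -0.02 in DKD cells, against -0.011 and 0.005 for all genes. In the knockdowns at basal Pcolce, an enhancer of procollagen cleavage, rose in FoxK1 KD (0.72 ± 0.22, adjusted p = 0.039) and DKD cells (1.02 ± 0.22, adjusted p = 0.001). DKD cells also had Plod1 higher and P4ha1 lower, and FoxK2 KD cells had 0 of the 17 called. The all-gene shares higher and lower were 3.39% and 4.71% in FoxK1 KD, 10.3% and 10.8% in DKD, and 0.211% and 0.167% in FoxK2 KD. After insulin 0 of the 17 were called in any knockdown. The all-gene shares were then 1.86% and 1.72% in FoxK1 KD, 0.871% and 0.343% in DKD, and 0.0088% and 0.0176% in FoxK2 KD.

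Of 23 matrix receptor genes 19 were tested. DKD cells at basal had 7 higher and 2 lower (median 0.15, all genes -0.001, with 10.3% of all genes higher and 10.8% lower), FoxK1 KD cells 2 higher (Itga3 and Itga1) and FoxK2 KD cells 0. The all-gene shares higher and lower were 3.39% and 4.71% in FoxK1 KD and 0.211% and 0.167% in FoxK2 KD. Itga3, an integrin chain that binds laminin, was 0.44 ± 0.08 higher in DKD (adjusted p = 7.8e-05), and Bcam, a receptor for laminin alpha 5, 0.89 ± 0.15 higher (adjusted p = 8.2e-05). In this comparison fold changes correlated with GC content over all genes (Spearman rho 0.47), and the part of that trend in the receptor calls was not tested. After insulin 2 were higher and 1 lower in FoxK1 KD, 1 was higher in DKD and 0 were called in FoxK2 KD cells. The all-gene shares were then 1.86% and 1.72% in FoxK1 KD, 0.871% and 0.343% in DKD, and 0.0088% and 0.0176% in FoxK2 KD. Insulin raised 5 and lowered 4 in Control, 2 and 3 in FoxK1 KD, 4 and 2 in FoxK2 KD, and 3 and 4 in DKD cells. Itga7 and Sdc1 rose and Itgb5 fell in all 4 genotypes, Itga7 by 0.96 ± 0.12 in Control (adjusted p = 1.5e-07).

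Of 25 matrix proteases and their activators 15 were tested. Insulin raised 4 and lowered 1 in Control and FoxK2 KD cells each, and raised 3 and lowered 0 in FoxK1 KD and in DKD cells, where 8.31 to 16.2% of all genes rose and 7.99 to 15.4% fell. The collagenase Mmp13 was lower in DKD cells at basal (-1.54 ± 0.53, adjusted p = 0.032) and in FoxK1 KD cells after insulin (-1.82 ± 0.43, adjusted p = 0.012). In all, 1 rose and 1 fell in FoxK1 KD, 1 rose and 2 fell in DKD and 0 were called in FoxK2 KD cells at basal. The all-gene shares higher and lower were 3.39% and 4.71% in FoxK1 KD, 10.3% and 10.8% in DKD, and 0.211% and 0.167% in FoxK2 KD. After insulin 2 fell in FoxK1 KD, 1 rose in DKD and 0 were called in FoxK2 KD cells. The all-gene shares were then 1.86% and 1.72% in FoxK1 KD, 0.871% and 0.343% in DKD, and 0.0088% and 0.0176% in FoxK2 KD.

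Of 22 genes of the TGF-beta pathway 19 were tested. Insulin lowered 6 in Control, 8 in FoxK1 KD, 8 in FoxK2 KD and 4 in DKD cells, where 13.1%, 15.4%, 13.7% and 7.99% of all genes fell, and raised 1, Ltbp3 in FoxK1 KD cells, where 16.2% of all genes rose. The list medians were -0.21, -0.20, -0.26 and -0.21. Smad3, which carries the receptor's signal to the nucleus, fell by 0.47 ± 0.08 in Control (adjusted p = 2e-05) and was not called in DKD cells, and the ligand gene Tgfb3 fell in all 4 genotypes (-0.58 ± 0.19 in Control, adjusted p = 0.021). At basal Tgfb3 was higher in FoxK1 KD (0.49 ± 0.15, adjusted p = 0.039) and DKD cells (0.69 ± 0.15, adjusted p = 0.0012), where DKD cells had 2 higher and 3 lower, FoxK1 KD cells 1 higher and FoxK2 KD cells 0 called. The all-gene shares higher and lower were 3.39% and 4.71% in FoxK1 KD, 10.3% and 10.8% in DKD, and 0.211% and 0.167% in FoxK2 KD. After insulin 1 was higher in FoxK1 KD and 0 were called in FoxK2 KD or DKD cells. The all-gene shares were then 1.86% and 1.72% in FoxK1 KD, 0.871% and 0.343% in DKD, and 0.0088% and 0.0176% in FoxK2 KD.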

How the data were processed

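Poly(A) RNA libraries of 30 AML12 samples in 8 groups had been sequenced on an Illumina HiSeq. The authors aligned reads with STAR 2.4.2a to GRCm38.p4 and deposited raw featureCounts counts per gene, 1 file per sample; the strand setting is not given in the sources used here. Gene names, exon lengths and GC content came from GENCODE M21, which held 48435 of the 49089 identifiers. Totals of 2141460 to 5668270 counts limit genes of low expression.

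Counts were fitted with edgeR 4.0.16 (R 4.3.3), with filterByExpr, TMM factors and 1 quasi-likelihood model of the 8 groups, and Benjamini-Hochberg adjustment over 11368 genes. A call needed an FDR below 0.05 with no minimum fold, where the study used 0.25 and, for insulin effects, a fold of 1.5. Errors of fold changes are SE, those of levels SD. CPM used TMM-scaled library sizes. The script was tested on simulated data. All tested genes enter the counts and medians, but a matrix gene and a listed protease gene are not reported here by name or drawn.

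The text gives full values for up to 4 genes in each direction per comparison by FDR, and the other calls more briefly. Matrix genes and the 4 further lists were chosen with earlier results of these data known. Alternatives were DESeq2 1.42.0, limma-voom (limma 3.58.1), filters of at least 1 count in any sample or 10 in every sample, the compared groups alone, the replicate number as a block, removal of a trend on GC content and length (mgcv 1.9.3), and each sample left out. FoxK1 KD against FoxK2 KD was added after the values were seen. Same-numbered samples did not deviate together on average (mean correlation -0.013 over 99 pairs, against 0.0043 over 294 others), and the main fit did not pair samples by number. Deviations within a group sum to 0, which ties the second value to the first. The check therefore cannot decide whether the numbers pair samples. No 2 samples of the same group agreed within sampling noise (smallest chi-square per degree of freedom 1.75), and pairs across groups were not checked.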

Additional observations from a re-analysis of the deposited data

Results flagged for a closer look

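The 22 matrix genes checked gave 132 groups of 4 samples. In 7 of these groups (5.3%) 1 sample lay far from the other 3 by Dixon's criterion, which chance gives in about 1 in 20 groups. Serpinh1 was not among the genes checked, and stood at 602 CPM in Control basal replicate 1, against 224 to 263 CPM in the others. Col16a1 was at 3.32 CPM in FoxK1 KD insulin replicate 1, against 5.93 to 6.35 CPM in the others. Col18a1 was at 799 CPM in Control basal replicate 1, against 586 to 598 CPM. Lamb2 was at 336 CPM in DKD basal replicate 4, against 389 to 398 CPM. Loxl2 was at 35.5 CPM in FoxK1 KD basal replicate 1, against 30.5 to 31.4 CPM, and at 22.4 CPM in FoxK2 KD basal replicate 2, against 27.7 to 28.7 CPM. Sparc was at 278 CPM in FoxK1 KD basal replicate 2, against 249 to 253 CPM. Timp1 was at 39.1 CPM in FoxK1 KD basal replicate 1, against 29.2 to 30.7 CPM.

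The insulin effect on Lamb3 was 0.33 in FoxK2 KD and -0.2 in DKD cells on the log2 scale, with all insulin samples above all basal samples in the first and below them in the second. That difference was not tested.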

How the results depend on the processing

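Under the alternatives other than the study's thresholds, the 64 calls of matrix genes gave 929 values. Of these, 795 kept the call, 134 lost it and 0 changed sign. Of the 58 calls with a value under all of these alternatives, 30 held throughout, and 27 of the 64 were lost without at least 1 sample. DESeq2 ended 2 calls, limma-voom 3, the filter of 1 count 8, the compared groups alone 12 and removal of the GC and length trend 10. The filter of 10 counts left 6 calls untested, of Col11a2, Col16a1 and Lamc3, and ended none of the others, and DESeq2 gave no adjusted p for Col11a2 in FoxK1 KD after insulin. The cause was not tested.

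At the study's thresholds (FDR 0.25, with a fold of 1.5 for insulin effects) the numbers called were 9 in FoxK1 KD (26.6% of all genes), 3 in FoxK2 KD (3.59%) and 14 in DKD (43.6%) at basal, 12 in FoxK1 KD after insulin (15.1%), 3, 4 and 4 for insulin in Control, FoxK2 KD and DKD cells (12%, 10.7% and 8.49%), 3 for the FoxK1 KD difference in insulin effect (1.55%), and 11 for FoxK1 KD against FoxK2 KD after insulin (12.6%). With at least 1 count in any sample they were 8 in FoxK1 KD and 2 in FoxK2 KD at basal, 6 for insulin in FoxK1 KD and 1 for its difference from Control. Of the 23784 genes kept by that filter, 343 were higher and 725 lower in FoxK1 KD, and 65 and 173 in FoxK2 KD. For insulin in FoxK1 KD they numbered 1570 and 1745, and for its difference from Control 142 and 32. In the compared groups alone they were 2 and 0 in FoxK1 KD and FoxK2 KD at basal, 0 and 1 in FoxK2 KD and DKD after insulin, 3 for insulin in Control, and 10 for FoxK1 KD against FoxK2 KD after insulin. Over all genes that fit called 30 higher and 15 lower in FoxK1 KD at basal, against 385 and 535 in the main fit. In FoxK2 KD at basal it called 0 and 1, against 24 and 19. After insulin it called 2 and 1 in FoxK2 KD, against 1 and 2, and 33 and 7 in DKD, against 99 and 39. For insulin in Control it called 590 and 512, against 1405 and 1485. Between the single knockdowns after insulin it called 419 and 301, against 226 and 187. With the GC and length trend removed, DKD at basal had 5, where 808 of all genes were higher and 1036 lower. DESeq2 gave 1 for the DKD difference in insulin effect, where it called 151 of all genes higher and 83 lower.

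With 1 sample left out, calls ranged from 3 to 6 (FoxK1 KD), 1 to 1 (FoxK2 KD) and 5 to 9 (DKD) at basal, from 3 to 6, 0 to 0 and 1 to 3 after insulin, from 5 to 8 (Control), 4 to 9 (FoxK1 KD), 7 to 9 (FoxK2 KD) and 5 to 7 (DKD) for insulin, from 0 to 1 for the DKD difference in insulin effect and 0 for the others, and from 4 to 4 and 3 to 5 for FoxK1 KD against FoxK2 KD at basal and after insulin. Over all genes, the basal calls in FoxK1 KD ranged from 220 to 487 higher and 188 to 757 lower. Those in FoxK2 KD ranged from 3 to 62 and 2 to 66, and those in DKD from 782 to 1481 and 901 to 1581. After insulin they ranged from 131 to 178 and 87 to 133 in FoxK1 KD. In FoxK2 KD they then ranged from 0 to 6 and 1 to 3, and in DKD from 46 to 83 and 13 to 39.

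With the replicate block, FoxK2 KD after insulin had 0 calls, where 1 of all genes was called higher and 1 lower. The block ended 4 calls in all, of Lamb1 in FoxK1 KD at basal (adjusted p = 0.062), Lamb3 in FoxK2 KD after insulin (0.07), Lamc3 for insulin in FoxK1 KD (0.052) and Col11a2 between the single knockdowns after insulin (0.05). Whether the numbers pair the samples was not settled.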
